A study of Mus musculus with 2 samples.

Results

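The 10 genes described here make, store, break down or sense serotonin and melatonin, and all 10 were found by name among the 31053 genes of a single-cell RNA count matrix from organoids of mouse small intestine, an epithelium that grows as hollow bodies in a gel. They are Tph1, Ddc, Slc18a1, Slc18a2, Maoa, Maob, Aanat, Asmt, Mtnr1a and Nqo2, and 8 of them reached 10 unique molecular identifiers (UMIs, counts of captured RNA molecules) over the kept cells. By the labels there was a control library and a library from melatonin treatment, both from culture day 3, and each pooled 3 organoid lines, so that the lines cannot be told apart. The strain, the age and sex of the mice and the melatonin dose and duration are not given in the sources used here. The deposited files of both samples were the same in 3 of 3 pairs, so there was 1 matrix, whose 21806 barcodes carry the suffix 1 or 2. No label ties a suffix to a treatment, so values are given as suffix 1 then suffix 2, an arbitrary order that says nothing about melatonin. With 1 library per group there are no replicates and no p-values, and every interval below is a 95% interval for counting error alone.

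Serotonin is made from tryptophan in 2 steps, by tryptophan hydroxylase and then by aromatic amino acid decarboxylase, and vesicular transporters load it into secretory granules. In the gut the enterochromaffin cell, a kind of enteroendocrine cell, is known as the main source of serotonin, and monoamine oxidases break the amine down in the cells that take it up. Melatonin is made from serotonin by acetylation and methylation and acts through membrane receptors of which Mtnr1a is one.

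Barcodes were kept as cells with 500 or more genes, 1000 or more UMIs and a mitochondrial share of no more than 20%, which left 2300 of suffix 1 and 1766 of suffix 2, with median depths of 29872 and 28759 UMIs. Of 29 barcode sequences found under both suffixes, 0 were kept under both. Each cell was placed by summed UMIs per 10000 of marker genes that hold none of the 10. The enteroendocrine gate (Chgb, Neurod1, Scg5, Pcsk1n and Rfx6) alone took 302 and 268 cells, or 13.1% and 15.2%. Within it an enterochromaffin gate (Lmx1a, Tac1, Trpa1 and Ucn3, with no peptide hormone gate met) took 176 and 142 cells, and 43 and 91 cells met a gate for Cck, Gip, Ghrl or Gcg and Pyy alone. Check markers kept out of the gates were highest in their own set for 6 of 6 enteroendocrine genes, 3 of 3 enterochromaffin genes and 4 of 4 enterocyte genes, and for 1 of 2 genes of the Neurog3 set. For the stem list it was 0 of 2, so the 230 and 322 cells over that list's cut alone are named by the list only. These checks did not set the enterochromaffin and Neurog3 sets against each other, or against enterochromaffin cells that met a peptide hormone gate. Chga was counted for both the enteroendocrine and the enterochromaffin set. Another 105 cells met gates of more than 1 lineage and stand apart. Enteroendocrine-gated cells were shallower, with medians of 13711.5 and 14994 UMIs against 32742 and 32242 outside the gate.

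The genes of serotonin synthesis and storage were concentrated in the enteroendocrine-gated cells. Tph1, which encodes the rate-limiting tryptophan hydroxylase of the gut, stood at 951 CPM (a gene's UMIs scaled by the total UMIs of the cell set; interval 921 to 981) in them and at 1.25 CPM in all cells outside the gate in suffix 1, a ratio of 762. In suffix 2 the levels were 1062 (1032 to 1093) and 1.26 CPM, a ratio of 846. Ddc, the decarboxylase that also serves other amine pathways, was at 436 against 23.5 CPM and at 452 against 24.4 CPM, ratios of 18.6 and 18.5. Slc18a1, the vesicular transporter VMAT1 of endocrine cells, was at 253 against 2.02 CPM and at 263 against 3.20 CPM. Slc18a2, its relative VMAT2, was at 48.8 against 0.228 CPM and at 58.3 against 0.390 CPM. These 4 genes were far higher inside the gate under both suffixes, with intervals wide apart.

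The genes of breakdown and of the quinone reductase did not share that pattern. Maoa, one of the oxidases of the mitochondrial outer membrane, was lower inside the gate, at 17.2 against 68.5 CPM and at 13.9 against 85.1 CPM, ratios of 0.252 and 0.163. Maob, the other oxidase, was at 25.9 against 11.8 CPM in suffix 1, a ratio of 2.2, and at 15.7 against 10.4 CPM in suffix 2, a ratio of 1.52. Nqo2, a quinone reductase also described as a melatonin-binding protein, was at 17.2 against 15.7 CPM and at 17.4 against 17.0 CPM, and its intervals overlapped. Calling a gene where its ratio was at least 2 in either direction, its intervals did not overlap and both groups together held at least 10 UMIs, 5 and 4 members were higher (Tph1, Ddc, Slc18a1 and Slc18a2 under both suffixes, Maob in suffix 1) and 1 and 1 lower (Maoa). Among all genes tested the same rule called 31.1% and 27.3% higher and 9.97% and 10.9% lower, so that a call alone says little here and the size of the ratio carries the description. The median log2 ratio was 2.62 over 8 members tested in suffix 1 and 4.16 over 7 in suffix 2, where Mtnr1a had too few UMIs, against 0.38 and 0.30 for all genes. The Maob call in suffix 1 was lost when each cell was weighted equally, at a ratio of 1.95.

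**Figure D1:**
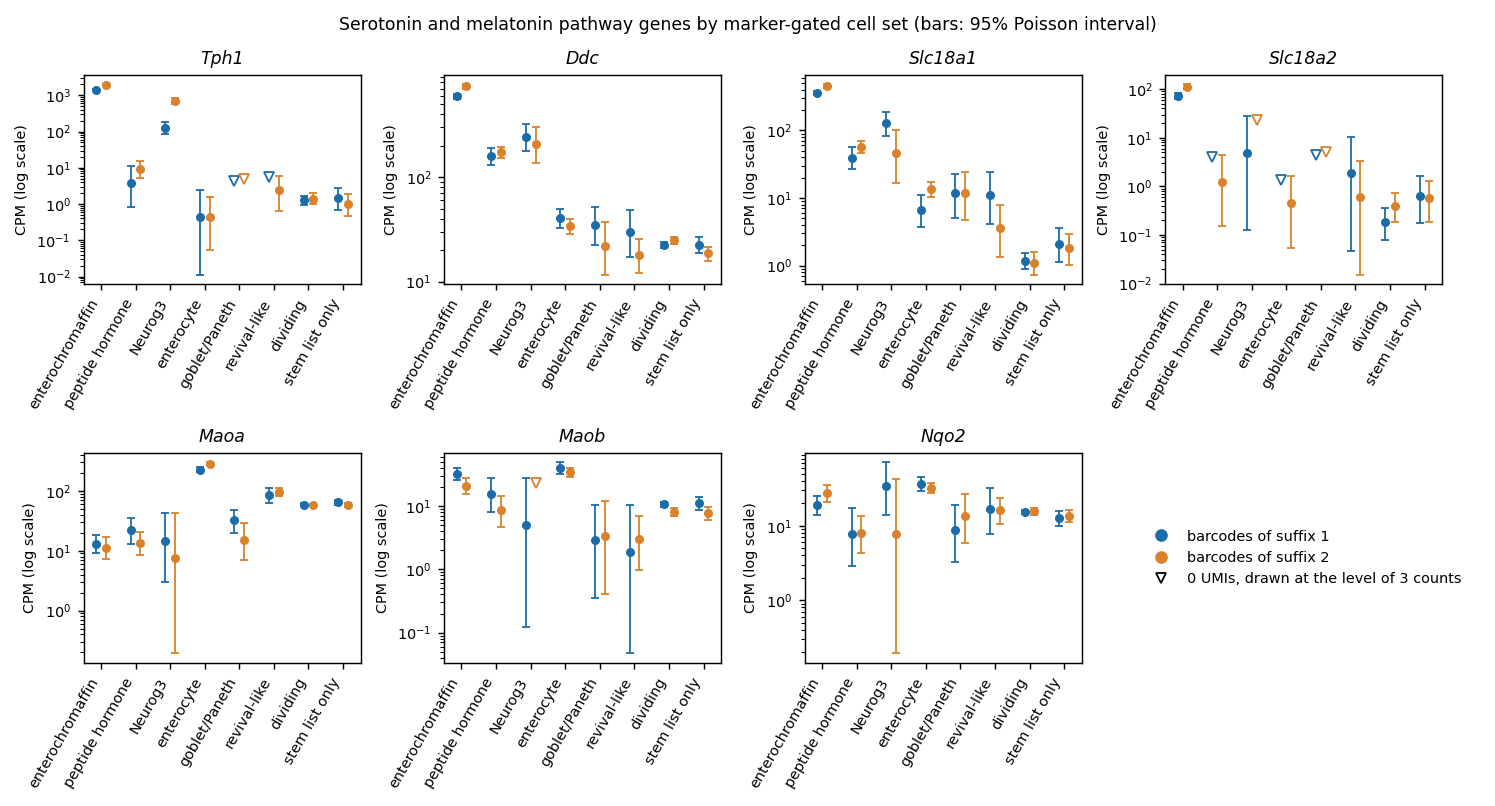
CPM on a log axis for 7 of the genes in 8 marker-gated cell sets, with the 95% Poisson interval as a bar, suffix 1 in blue and suffix 2 in orange, and an open triangle at the level of 3 counts where no UMI was found. Tph1, Ddc, Slc18a1 and Slc18a2 are highest in enterochromaffin-gated cells, while Maoa is highest in enterocyte-gated cells.

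Tph1, Ddc and Slc18a2 were higher and Maoa lower in the enteroendocrine-gated cells as a set, though not cell by cell, since Slc18a2 and Tph1 differed within that set. The 250 bases before the annotated starts of these genes are shown from RefSeq (build GRCm38.p6), read on the gene's strand. The table used held 7 of the 10 members, 6 of them with readable bases. Tph1 and Ddc each have 2 annotated starts, and 3' reads do not tell which was used. Capitals mark matches on either strand to 5 motifs: the LIM-homeodomain core TAATTA, the E-box of NEUROD and NEUROG factors CAGATG, the TATA box with letters TATAAA, the HNF1 core GTTAAT and the GC box CCGCCC.
Tph1, chr7:46672538-46672787, minus strand: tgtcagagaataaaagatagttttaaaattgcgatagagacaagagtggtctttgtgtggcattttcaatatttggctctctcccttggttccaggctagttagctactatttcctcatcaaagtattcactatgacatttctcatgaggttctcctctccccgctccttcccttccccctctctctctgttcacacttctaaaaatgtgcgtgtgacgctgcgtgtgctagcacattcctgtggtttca
Tph1, chr7:46667378-46667627, minus strand: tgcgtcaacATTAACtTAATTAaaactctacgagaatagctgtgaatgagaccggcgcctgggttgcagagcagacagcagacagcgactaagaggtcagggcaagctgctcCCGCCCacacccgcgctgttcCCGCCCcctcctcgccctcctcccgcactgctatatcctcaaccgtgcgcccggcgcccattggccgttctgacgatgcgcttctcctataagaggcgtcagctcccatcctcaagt
Ddc, chr11:11898145-11898394, minus strand: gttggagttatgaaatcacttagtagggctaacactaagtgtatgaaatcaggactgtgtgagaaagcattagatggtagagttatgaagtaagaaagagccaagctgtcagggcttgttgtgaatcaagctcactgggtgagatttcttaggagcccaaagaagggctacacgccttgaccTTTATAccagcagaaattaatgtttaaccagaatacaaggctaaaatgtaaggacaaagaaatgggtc
Ddc, chr11:11890409-11890658, minus strand: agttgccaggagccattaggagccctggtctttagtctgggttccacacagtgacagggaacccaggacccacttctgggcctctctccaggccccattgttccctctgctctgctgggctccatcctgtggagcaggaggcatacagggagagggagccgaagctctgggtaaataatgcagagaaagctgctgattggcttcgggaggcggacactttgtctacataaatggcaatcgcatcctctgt
Slc18a2, chr19:59260628-59260877, plus strand: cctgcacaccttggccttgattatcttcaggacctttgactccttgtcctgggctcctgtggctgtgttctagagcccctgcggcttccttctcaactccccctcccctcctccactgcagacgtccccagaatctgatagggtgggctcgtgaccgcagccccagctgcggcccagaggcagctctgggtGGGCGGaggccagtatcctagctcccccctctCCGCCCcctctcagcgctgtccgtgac
Maoa, chrX:16619448-16619697, plus strand: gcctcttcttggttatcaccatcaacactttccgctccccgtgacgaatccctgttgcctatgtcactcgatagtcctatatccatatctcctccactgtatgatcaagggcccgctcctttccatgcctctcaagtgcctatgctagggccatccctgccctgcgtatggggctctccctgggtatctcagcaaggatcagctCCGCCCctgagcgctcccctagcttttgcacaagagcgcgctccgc
One Tph1 start had TAATTA 234 bases before it and a reverse GTTAAT 241 bases before it, which do not overlap, and CCGCCC at 138 and at 117 bases. The other Tph1 start had no match, and the Maoa and Slc18a2 windows held only CCGCCC. One Ddc start had a reverse TATAAA 68 bases before it and the other Ddc start had no match. No window printed here held CAGATG. Windows of Nqo2 and Mtnr1a were searched but are not printed. One Nqo2 start had CAGATG 147 bases before it and a reverse CCGCCC at 23 bases, and the other Nqo2 start and Mtnr1a had no match. Over 32841 promoter windows of this length, TAATTA was found in 4.84%, CAGATG in 14.4%, TATAAA in 12.4%, GTTAAT in 6.43% and CCGCCC in 32.7%. A match describes letters and not binding.

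Within the enteroendocrine-gated cells, the enterochromaffin-gated cells held nearly all of the Tph1 RNA. Tph1 stood at 1436 CPM (1390 to 1483) in them and at 73.3 CPM in the other enteroendocrine-gated cells in suffix 1, and at 1989.9 (1932 to 2049.6) against 89.6 CPM in suffix 2, ratios of 19.6 and 22.2. Slc18a2 showed ratios of 15.1 (73.1 against 4.84 CPM) and 59.1 (112 against 1.90 CPM). In the other cells these rest on 7 UMIs, 6 of them in 1 cell, in suffix 1 and on 4 UMIs in suffix 2. Ddc and Slc18a1 differed less, by 3.74 and 4.76 times (591 against 158 and 736 against 155 CPM) and by 5.17 and 7.65 times (354 against 68.5 and 457 against 59.8 CPM). The 4 genes of synthesis and storage therefore shared a direction but not a size of difference.

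By the same calling rule 5 members were higher in enterochromaffin-gated cells in each suffix and 0 were lower, against 5.58% and 7.83% of all genes higher and 2.42% and 2.92% lower. The fifth called gene was Maob in suffix 1, at 32.5 against 13.8 CPM, and Nqo2 in suffix 2, at 27.6 against 6.64 CPM. Maob in suffix 2 was at 20.8 against 10.4 CPM, a ratio of 1.99 that passed 2 under 5 alternatives (2.17 to 3.62), and Nqo2 in suffix 1 was at 18.8 against 14.5 CPM, a ratio of 1.29. Maoa was at 13 against 24.9 CPM and 11.3 against 16.6 CPM with overlapping intervals, and it was called lower in suffix 1, at 0.432, with marker cuts doubled, at 0.398 with cells weighted equally and at 0.486 with cells of more than 1 lineage counted as enteroendocrine. The median log2 ratio of the members tested was 1.90 and 2.24, against 0.13 and 0.18 for all genes.

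Peptide hormone cells had the decarboxylase and a transporter with hardly any Tph1. In the Cck-gated cells (32 and 68 cells; Cck encodes cholecystokinin) Tph1 was at 3.43 and 11.7 CPM, from 2 and 15 UMIs. In the same cells Ddc stood at 142 (113 to 176) and 167 (145 to 191) CPM and Slc18a1 at 36.0 (22.3 to 55.1) and 57.6 (45.3 to 72.3) CPM. Slc18a2 had 0 and 1 UMIs there. The Gip-gated cells (9 and 15 cells; Gip encodes the glucose-dependent insulinotropic peptide) had Ddc at 253 and 219 CPM and Tph1 at 1 and 0 UMIs. Cells over the Neurog3 cut without another subtype gate (20 and 11 cells; Neurog3 is the factor of early enteroendocrine cells) had Tph1 at 128 (83.7 to 188) and 708 (571 to 868) CPM, from 3 and 7 cells with a UMI, and 1 cell held 18 of the 26 UMIs of suffix 1 and 3 cells 81.5% of those of suffix 2. Ddc in those cells was at 241 and 208 CPM. The remaining 58 and 17 enteroendocrine-gated cells were shallow, with medians of 1677 and 3232 UMIs, and their Tph1 stood at 195 and 288 CPM.

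Nearly every enterochromaffin-gated cell had a Tph1 UMI. It was found in 172 of 176 cells (97.7%, exact interval 94.3% to 99.4%) and in 141 of 142 (99.3%, with a lower bound of 96.1%), at median depths of 14261.5 and 14180 UMIs. In dividing cells, which are not known to make serotonin, the share was 4.31% and 5% at the greater depths of 36274 and 37533.5 UMIs. With every cell thinned to 2000 UMIs, leaving out shallower cells, the shares were 85.2% and 94.8% in enterochromaffin-gated cells, 8.81% and 9.16% in the other enteroendocrine-gated cells and 0.256% and 0.404% in dividing cells. The thinned share over all enteroendocrine-gated cells was 59.9% and 56.1%. Tph1 and Ddc were found together in 162 and 137 enterochromaffin-gated cells, and both with a vesicular transporter in 155 (88.1%) and 136 (95.8%). These cells also varied in level: the median was 12.4 and 18.2 Tph1 UMIs per 10000, with a 10th to 90th percentile range of 3.91 to 26.0 and 10.3 to 35.6.

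Slc18a2 UMIs were found in fewer of these cells than Slc18a1 UMIs, and always beside them. Slc18a1 was found in 166 of 176 and 139 of 142 enterochromaffin-gated cells, and Slc18a2 in 50 (28.4%) and 47 (33.1%), or 9.49% and 12.9% at 2000 UMIs, so these shares depend on depth and are not shares of cells expressing the gene. All 50 and all 47 of the Slc18a2 cells also had Slc18a1, and Slc18a1 was present in nearly every cell of the set. Among enterochromaffin-gated cells that also met the Neurog3 gate (65 and 43 cells), Slc18a2 was at 3.08 (0.636 to 9.01) and 24.3 (13.3 to 40.8) CPM, from 3 and 14 UMIs, of which 1 cell held 10 in suffix 2. In those that did not (111 and 99 cells) it was at 115 (98.8 to 132) and 143 (125 to 163) CPM. Ddc too was lower in the Neurog3 cells, at 421 against 691 and 509 against 816 CPM, and so was Slc18a1, at 268 against 405 and 359 against 492 CPM. Tph1 went the other way, at 1807 (1723 to 1893) against 1216 (1163 to 1270) CPM and at 2199 (2079 to 2323) against 1916 (1850 to 1985) CPM. The intervals of each of these 4 genes did not overlap between the cells that met the Neurog3 gate and those that did not, under either suffix.

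The cells with most Slc18a2 had more Slc18a1, Chga, Trpa1 and Reg4 and less Tph1 and Tac1, while their Chgb was about the same; Trpa1 and Tac1 are genes of the enterochromaffin gate. Cells with at least 3 Slc18a2 UMIs (24 and 24) were set beside those with 0 (126 and 95), a split made after the values were seen, so that the figures are a description. The high cells were deeper, at median depths of 16299 and 18293.5 against 13564.5 and 13552 UMIs. Chga, the granule protein chromogranin A, was at 17808 against 4563 CPM and at 20745 against 8506 CPM. Chgb, the granule protein chromogranin B and a gate gene, was at 52326.5 against 54619.8 CPM and at 59099.5 against 59634.8 CPM. Trpa1, an irritant-sensing channel, was at 431 against 108 CPM and at 413 against 103 CPM, and Reg4, a secreted lectin, at 38039 against 3665 CPM and at 43722 against 9718 CPM. Tac1, which encodes substance P, was lower in the high cells, at 5238 against 8946 CPM and at 4823 against 9679 CPM, and Neurog3 was at 10.4 against 565 and 16.3 against 522 CPM. Tph1 was at 996 against 1499 and 1664 against 2009 CPM. Slc18a1 was at 516 (447 to 593) against 315 CPM and at 554 (490.1 to 624) against 410.4 CPM, with intervals apart under both suffixes. Ddc was at 755 (671 to 847) against 498 CPM and at 790.3 (714 to 873) against 681 CPM, with intervals apart in suffix 1 and overlapping in suffix 2.

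**Figure D2:**
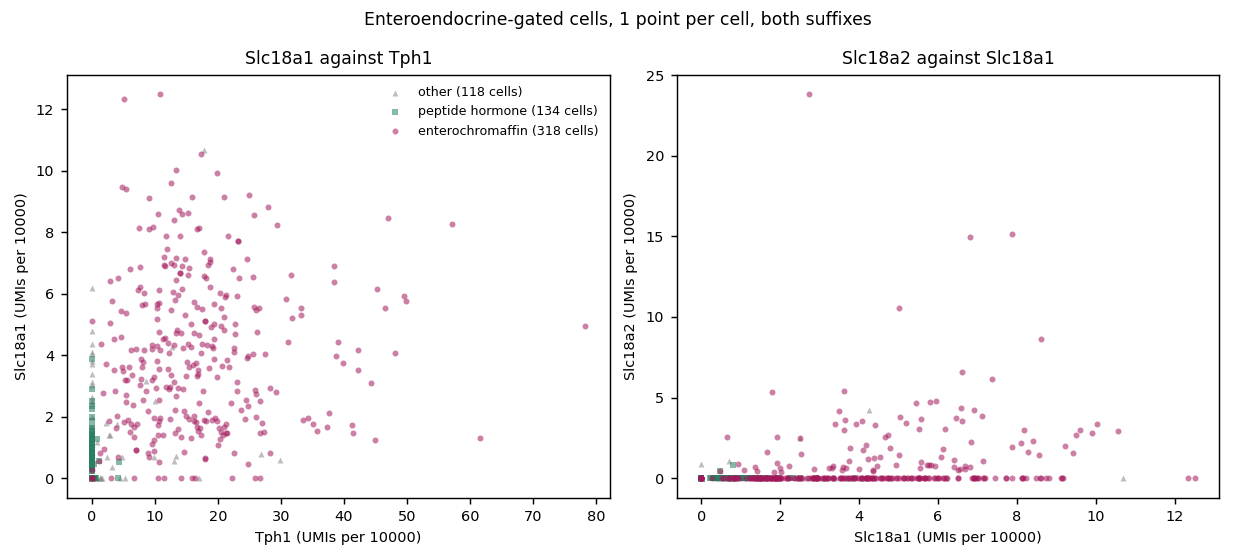
Each point is 1 enteroendocrine-gated cell of either suffix, in UMIs per 10000: Slc18a1 against Tph1 on the left and Slc18a2 against Slc18a1 on the right, with enterochromaffin-gated cells as circles, peptide hormone cells as squares and the others as triangles. Peptide hormone cells lie along the axis with Slc18a1 but little or no Tph1, and most enterochromaffin-gated cells lie at 0 for Slc18a2.

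Genes whose cell-to-cell pattern was most like each member were ranked by Pearson's r of log2(1 + UMIs per 10000) over 262 and 259 enteroendocrine-gated cells with at least 2000 UMIs, among 8776 genes found in at least 10% of them, by the lower of the values of both suffixes. The points share library, depth and the gate itself, so r is a description. For Tph1 they were Tac1 (0.82 and 0.86), the sodium channel gene Scn3a (0.77 and 0.85), Chgb, Lmx1a and Vim; Tac1, Chgb and Lmx1a are gate genes. For Ddc they were Gstt1 (0.65 and 0.75), Rab3c, Fbxo9, Tpbg and Chga. For Slc18a1 they were Chgb (0.64 and 0.64), Tpbg, Chga, Gstt1 and Scn3a. For Slc18a2, ranked after the others were seen, they were Afp (0.68 and 0.65), Reg4 (0.62 and 0.63), S100a1, Trpa1 and Chga. Tph1 itself had r of 0.56 and 0.72 with Slc18a1, 0.41 and 0.64 with Ddc and 0.20 and 0.33 with Slc18a2. For Maoa, Maob and Nqo2 the 5 genes ranked highest had r of at most 0.29, and with so few UMIs per cell this is no finding.

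In dividing cells Tph1 stood at a low share of its enteroendocrine level, within the range of 3 other enteroendocrine genes, and Slc18a1, Slc18a2 and Ddc stood at higher shares. Of those 3 genes Chgb belongs to the enteroendocrine gate, so its share is partly set by the gate, while Chga and Tac1 do not. Droplets can take up RNA from broken cells, and its part in these values was not tested. In dividing cells Chgb, Chga and Tac1, which those cells are not known to make, stood at 0.101% to 0.160% of their enteroendocrine level, and Tph1 stood at 0.134% (0.101% to 0.174%) and 0.133% (0.0932% to 0.184%). Of all Tph1 UMIs in kept cells, 90.2% (89.3% to 91.1%) and 89.7% (88.8% to 90.5%) lay in enteroendocrine-gated cells and another 8.16% and 9.25% in cells of more than 1 lineage. Of 193 and 166 cells with at least 2 Tph1 UMIs and at least 2 per 10000, 168 and 140 were enterochromaffin-gated, 8 and 11 other enteroendocrine-gated and 17 and 15 of more than 1 lineage. None of the 1949 and 1459 cells outside the gate met that level, which allows a share of up to 0.154% and 0.206%, taking 3 cells as the limit for a count of 0.

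Slc18a1, Slc18a2 and Ddc in dividing cells lay above the shares of Chgb, Chga and Tac1. Slc18a1 was at 0.467% (0.348% to 0.614%) and 0.418% (0.277% to 0.603%) of its enteroendocrine level in dividing cells and at 2.62% (1.47% to 4.32%) and 5.08% (3.88% to 6.55%) in enterocyte-gated cells, from 15 and 60 UMIs. In the same enterocyte-gated cells Tph1 was at 0.0464% and 0.0420%, from 1 and 2 UMIs, and Chgb at 0.132% and 0.105%. Ddc was at 5.11% and 5.48% in dividing cells and at 9.29% and 7.45% in enterocyte-gated cells. Ddc was found in 49.6% and 54.4% of dividing cells, which together with their number gave them 29.3% and 19.6% of all Ddc UMIs. Slc18a2 in dividing cells rested on 8 and 10 UMIs, at 0.379% (0.164% to 0.748%) and 0.673% (0.323% to 1.24%).

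**Figure D3:**
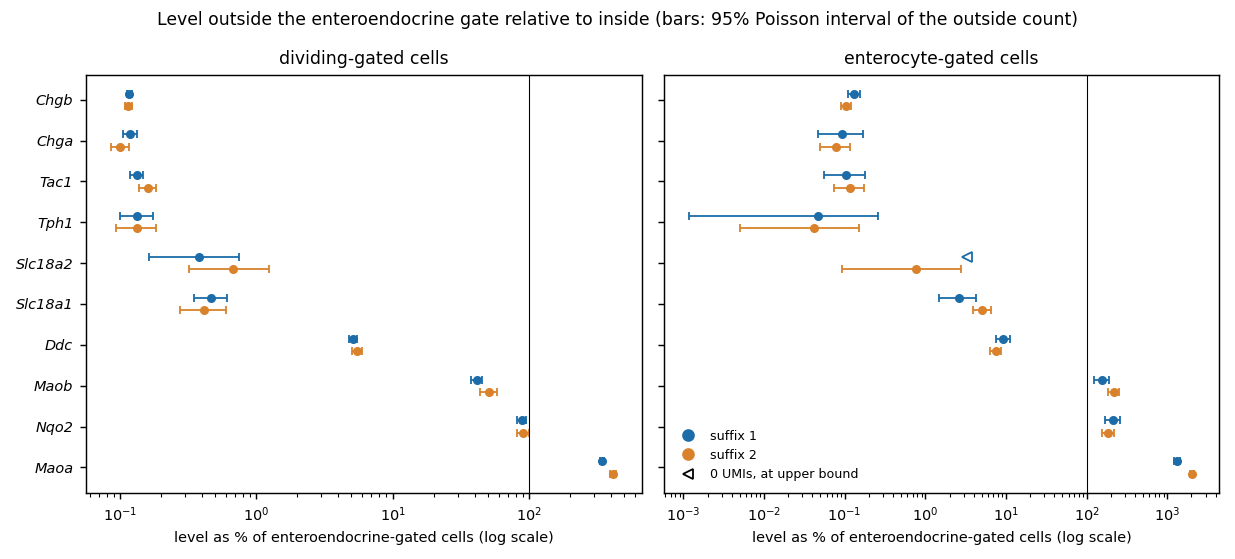
The level of each gene in dividing cells (left) and enterocyte-gated cells (right) as a percentage of its level in enteroendocrine-gated cells, on a log axis, with suffix 1 in blue, suffix 2 in orange and bars for the 95% Poisson interval of the outside count. Chga, Tac1, Tph1 and the gate gene Chgb lie at about 0.1% in dividing cells, Slc18a1, Slc18a2 and Ddc lie above it, and Maoa lies beyond the line at 100%.

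Enterocyte-gated cells had the highest Maoa level in CPM, while the more numerous dividing cells held more of its UMIs, at 64.4% and 36.8% against 12.9% and 31.8%. Against dividing cells, a comparison added after the values were seen, Maoa was at 226 (207 to 246) against 59.3 CPM and at 284 (268 to 300) against 57.8 CPM, ratios of 3.81 and 4.91. Maob was at 39.7 against 10.7 CPM and at 34.1 against 8.01 CPM, ratios of 3.71 and 4.26. Nqo2 was at 36.6 against 15.3 CPM and at 32.3 against 15.7 CPM, ratios of 2.39 and 2.07. Slc18a1 was at 6.61 against 1.18 CPM and at 13.4 against 1.10 CPM. These 4 members were called higher under each suffix and 0 lower, against 12.9% and 12.8% of all genes higher and 17.9% and 22.6% lower. Ddc, at 40.6 against 22.3 and 33.7 against 24.8 CPM, missed the ratio of 2, though with doubled marker cuts it was called in suffix 1, at 2.08. The mitochondrial share of UMIs was higher in enterocyte-gated cells, with medians of 14.9% and 14.7% against 9.21% and 9.11%. With at most 10% allowed, Maoa kept ratios of 3.57 and 4.81, but only 2 members were called in each suffix, since Slc18a1, at 5.41 and 10.2, and Nqo2, at 2.54 and 1.75, lost the call in both and Maob, at 2.14, lost it in suffix 1 while Ddc, at 4.19, gained it there. Nqo2 also missed the ratio of 2 in suffix 1 with cells weighted equally (1.87) and in suffix 2 with marker cuts halved (1.96) or doubled (1.94) or without the 3 cells with most of its UMIs (1.96).

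Maoa was highest in enterocyte-gated cells and, among lineage sets of at least 20 cells, lowest in enteroendocrine-gated cells under each suffix. Between them, cells that met no gate were at 91.4 (82.0 to 102) and 95.8 (87.1 to 105) CPM and the revival-like cells (18 and 35 cells over a cut for Clu, Anxa1, Anxa3 and S100a6) at 84.5 (61.6 to 113) and 97.5 (83.1 to 114) CPM, with overlapping intervals. In the revival-like cells 3 cells held 75.6% and 60.7% of the UMIs. Cells over the stem list alone were at 64.1 (57.9 to 70.7) and 58.2 (53.3 to 63.4) CPM and dividing cells at 59.3 (57.0 to 61.6) and 57.8 (54.9 to 60.9) CPM, which overlapped. Goblet and Paneth cells, the mucus and defensin secretors, were at 32.1 (20.1 to 48.6) and 15.1 (6.92 to 28.7) CPM, and enteroendocrine-gated cells at 17.2 (13.4 to 21.8) and 13.9 (10.6 to 17.9) CPM, again with overlapping intervals. Maob in enterochromaffin-gated and enterocyte-gated cells of suffix 1 had overlapping intervals, at 32.5 (26.0 to 40.2) and 39.7 (31.9 to 48.8) CPM. In suffix 2 it was lower there, at 20.8 (15.2 to 27.8) against 34.1 (28.9 to 40.0) CPM, with intervals that did not overlap.

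The enzymes that make melatonin were at the edge of detection. Aanat, the acetyltransferase that is usually rate-limiting, and Asmt, the methyltransferase of the last step, each had 1 UMI per suffix in 61628537 and 51111519 UMIs, or 0.0162 and 0.0196 CPM with upper limits of 0.0904 and 0.109 CPM. Neither had a UMI in any cell that met the enteroendocrine gate alone, where 3 counts would have been 0.739 and 0.695 CPM. Both therefore went into no comparison. The 1 Aanat UMI of suffix 2 lay in a cell of more than 1 lineage that also met the enteroendocrine gate. Mtnr1a, a melatonin receptor gene, had 16 and 5 UMIs, at 0.260 (0.148 to 0.422) and 0.0978 (0.0318 to 0.228) CPM. Of these, 9 and 4 lay in dividing cells and 2 and 0 in enteroendocrine-gated cells. Another 3 and 0 lay in cells of more than 1 lineage that also met the enteroendocrine gate. Mtnr1b had 0 UMIs. Mtnr1a reached 10 UMIs for the comparison of enteroendocrine-gated with other cells in suffix 1 alone, where it was at 2 against 11 UMIs with overlapping intervals.

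Of 52 other genes of these pathways, 10 had 0 UMIs in kept cells and 23 had fewer than 10. Of 27 and 26 tested, 9 were called higher in enteroendocrine-gated cells and 5 lower under each suffix, where 31.1% and 27.3% of all genes were called higher and 9.97% and 10.9% lower. Their median log2 ratio was 0.24 and -0.05, below the 0.38 and 0.30 of all genes, so the list as a whole did not stand out as higher and single genes are described. The enzymes that make and recycle tetrahydrobiopterin, the cofactor of tryptophan hydroxylase, were mixed. Gch1, the first enzyme of that route, was at 323 against 18.7 CPM and at 266 against 27.9 CPM, and Qdpr, which recycles the cofactor, was at 287 against 111 CPM and at 251 against 103 CPM. Pts and Spr, the middle and last steps, were not called, at ratios of 0.694 and 0.874 and of 0.984 and 0.914. Gch1 in enterochromaffin-gated against other enteroendocrine-gated cells had ratios of 1.56 and 2.05, the latter called, and Qdpr of 2.46 and 2.32. Th, which makes the dopamine precursor with the same cofactor, had 12 and 13 UMIs inside the gate and 2 and 1 outside. Of those inside, 1 and 0 were in enterochromaffin-gated cells.

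The carriers split by cell type. Slc6a4, the plasma membrane serotonin transporter, was lower in enteroendocrine-gated cells, at 2.22 against 11.1 CPM and at 2.55 against 7.66 CPM. The low-affinity organic cation carriers Slc22a3 and Slc29a4 were higher there. Slc22a3 was at 25.1 against 0.176 CPM and at 16.4 against 0.130 CPM, and Slc29a4 at 22.7 against 0.246 CPM and at 17.6 against 0.411 CPM. Of the Slc22a3 UMIs inside the gate, 99 of 102 and 71 of 71 were in enterochromaffin-gated cells, so that in suffix 2 the level was at least 22.6-fold higher there than in the other enteroendocrine-gated cells, taking 3 counts as the floor. Slc7a5, which imports large neutral amino acids such as tryptophan, was higher inside the gate at ratios of 3.18 and 3.05, and its partner Slc3a2, at 1.91 and 1.55, was not called. The peptide carriers Slc15a1 and Slc15a2 were higher inside the gate, Slc15a1 with 0 of 44 and 3 of 51 UMIs in enterochromaffin-gated cells.

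Among enzymes and receptors, Rora, an orphan nuclear receptor once proposed to bind melatonin, was at 17.0 against 0.123 CPM and at 17.6 against 0.281 CPM. Aldh1b1, Tgm2, Nqo1 and Cyp1a1 were lower inside the gate. Nqo1, the close relative of Nqo2, had ratios of 0.294 and 0.168, whereas Nqo2 had 1.10 and 1.02. Cyp1a1, which hydroxylates melatonin, had 1 and 1 UMIs inside the gate and 672 and 381 outside. Aldh2, which clears the aldehyde left by the oxidases, missed the call at 0.543 and 0.557. Of 14 serotonin receptor genes, 7 had 0 UMIs and none had more than 19.

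**Figure D4:**
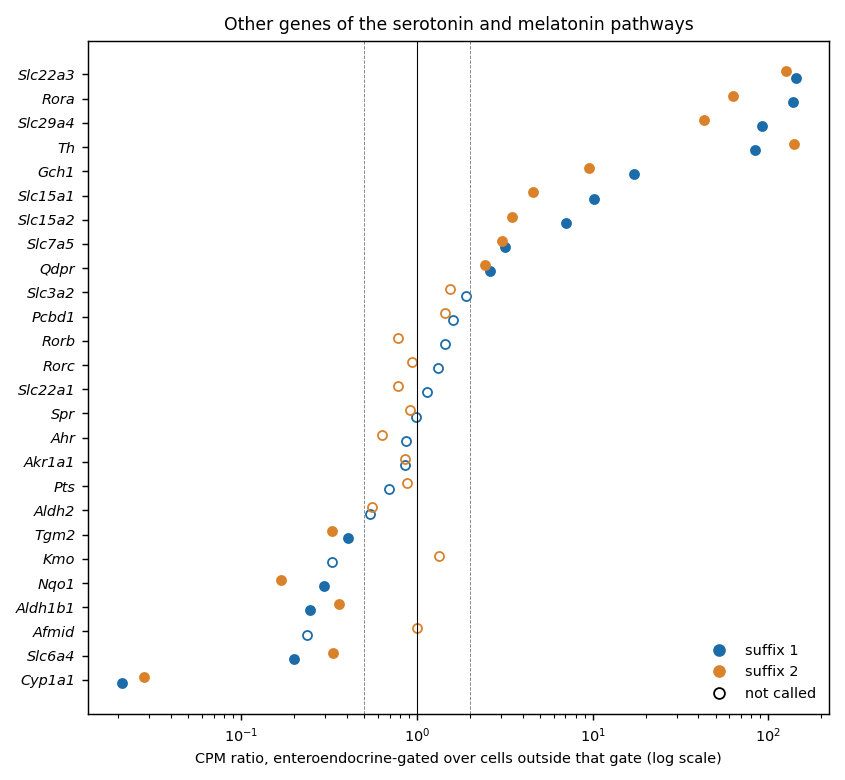
The ratio of CPM in enteroendocrine-gated cells to CPM in cells outside that gate, on a log axis, for the 26 other pathway genes tested under both suffixes, with filled points where the gene was called and open points where it was not. Slc22a3, Rora, Slc29a4, Th and Gch1 lie at the right and Cyp1a1 and Slc6a4 at the left, and the dashed lines mark ratios of 0.5 and 2.

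Between the suffixes few members passed the call. Over all kept cells 1 member was called by a rule with a ratio of at least 1.5, against 4.25% of all genes higher and 2.93% lower in suffix 2. It was Slc18a2, at 5.34 (4.73 to 6.01) against 3.52 (3.07 to 4.02) CPM, suffix 2 against suffix 1, and Tph1 stood at 100.1 against 69.4 CPM, a ratio of 1.44 that passed 1.5 with no mitochondrial limit (1.54) and with cells weighted equally (1.58). In enteroendocrine-gated cells 1 was called, Maob, lower at 15.7 against 25.9 CPM, a ratio of 0.609, against 1.02% of genes higher and 3.03% lower. In enterochromaffin-gated cells 1 was called, Slc18a2, at 112 against 73.1 CPM, a ratio of 1.53, against 0.881% and 2.24%. Tph1, Ddc and Slc18a1 there had ratios of 1.39, 1.25 and 1.29 with intervals that did not overlap, and Maob had a ratio of 0.640 with overlapping intervals. The median log2 ratio there was 0.37 over 7 members tested and -0.02 over all genes, against 0.25 and 0.03 over all kept cells. No member was called in enterocyte-gated cells (background 0.717% and 1.74%), dividing cells (2.71% and 2.53%) or cells over the stem list alone (2.29% and 2.71%). The Slc18a2 ratio moved to 0.964 over all cells and 0.968 in enterochromaffin-gated cells with at most 10% mitochondrial UMIs, so its direction rests on that limit, while Maob in enterochromaffin-gated cells was then called lower, at 0.512. Under the main limit 3 cells held 26.3% and 26.0% of its UMIs over all cells. The shares of cell sets also differed, with dividing cells at 54.5% and 40.8% and enterocyte-gated cells at 3.57% and 7.70%, and their part in the values over all kept cells was not tested.

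Markers of other cells that can hold serotonin or amine genes were checked in the enteroendocrine-gated cells. The 3 immune genes (Ptprc, Cd3e and Lyz2) and the 3 mesenchymal genes (Col1a1, Col3a1 and Dcn) had 0 UMIs there under both suffixes. Mast cells also express Tph1, and of 5 mast cell genes Cpa3 and Mcpt1 were at 0 under both suffixes. Tpsb2 had 1 and 1 UMIs and Mcpt2 had 1 and 0. The summed level of 35.0 and 33.8 CPM was nearly all Kit, at 34.5 and 33.6 CPM, where all kept cells had a summed level of 5.89 and 5.20 CPM. The part of mast cells in the members' levels was not tested. Of the neuronal genes, Tubb3 was at 68.5 and 49.8 CPM and Elavl4 at 9.61 and 3.01 CPM in these cells, and their part in the members' levels was not tested.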

How the data were processed

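Per the labels' protocols, 10x Genomics 3' libraries were made from pooled organoid cells and sequenced on an Illumina instrument. Per the submitters' processing notes, Cell Ranger 3.1.0, bcl2fastq 2.20.0 and STAR 2.7.3a were used, and the genome build is not given in the sources used here. The deposited values are whole UMI counts per gene and barcode, with no normalization by the authors. Of 31053 gene identifiers, 30934 were found in a reference table of mouse gene names. Kept barcodes held 58.1% of the UMIs.

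The matrix was handled as 1 sample. Cells were placed by marker sums per 10000 UMIs, with at least 2 marker UMIs and cuts set after the marker distributions were seen (enteroendocrine 10, enterochromaffin 20, peptide hormones 50, enterocyte 25). Of 658 cells over the enteroendocrine cut 66 lay under double it, and 130 cells lay just under the cut. UMIs were summed per set and suffix and scaled by the set's total to give CPM, with exact Poisson intervals, with Clopper-Pearson intervals for percentages of cells. These 3' counts are not scaled by length, so levels are compared between cells and not between genes. Log2 ratios use a pseudocount of 1 CPM. Scrublet in scanpy 1.11.5 marked 14 of 4066 cells (0.344%), and whether such a low share means that it missed doublets was not tested. No cell was left out on its scores in the main results. One alternative left out the 277 cells in the top 5% of scores, so it shares that doubt. The calling script was tested on simulated counts. Analyses used Python 3.11.15, numpy 2.4.6, scipy 1.17.1 and pandas 2.3.3. The genes named are the 10 members, genes of a fixed pathway list that were called or have a role in a sentence, and the 5 genes most like a member. The members and the lists were chosen with earlier results of these data known. Alternatives changed the mitochondrial limit, the cell filter, the marker cuts, doublet scores, cell weighting, shared barcodes, the cells with most UMIs, the ratio, the depth of thinning, the pseudocount and the cells of more than 1 lineage. One marker of another cell type is not reported here.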

Additional observations from a re-analysis of the deposited data

Results flagged for a closer look

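The members were also present in the barcodes over 20% mitochondrial UMIs (10018 of suffix 1 and 7397 of suffix 2), which entered no comparison. Each value here is a level in those barcodes above what a count of 3 would give. Tph1 stood at 9.28 and 15.2 CPM, Ddc at 13.2 and 14.2 CPM, Slc18a1 at 4.62 and 5.35 CPM and Slc18a2 at 1.06 and 0.517 CPM. Maoa stood at 37.7 and 44.0 CPM, Maob at 4.53 and 4.31 CPM and Nqo2 at 6.43 and 8.25 CPM, and Mtnr1a at 0.194 CPM in suffix 1. Of these barcodes 387 and 221 met the enteroendocrine gate, with Tph1 at 173 and 570 CPM and Ddc at 77.6 and 138 CPM.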

How the results depend on the processing

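Of 308 counts and shares recomputed, 269 stayed and 39 moved, where a count had to stay within 1.5 times and a share within its interval. Of 1062 member ratios and log2 ratios, 17 gained a call, 21 lost one and 2 called ones passed to the other side of 1. The other 1022 were counted as unchanged, which takes in any uncalled ratio that crossed 1. Under a changed pseudocount only a turn in the sign of a called log2 ratio was looked for. The Tph1 share in enteroendocrine-gated cells (suffix 1, suffix 2) was 87.8% and 88.4% with no mitochondrial limit, 87.9% in suffix 2 with at most 10%, 77% and 86.2% with marker cuts halved, 93.9% and 92.4% with them doubled, and 98.3% and 98.9% with cells of more than 1 lineage counted in. The share of cells with a Tph1 UMI moved with the depth of thinning. It was 40.9% and 46.3% in enteroendocrine-gated and 67.4% and 81.9% in enterochromaffin-gated cells at 1000 UMIs. At 5000 UMIs it was 69.6% in enteroendocrine-gated cells of suffix 1 and 95.9% and 98.8% in enterochromaffin-gated cells, which had 97.7% and 99.3% unthinned. With no mitochondrial limit the enteroendocrine-gated shares were 42.4% and 47.6%. With at most 10% mitochondrial UMIs, 2 members were called in enterocyte-gated against dividing cells in each suffix, and the Slc18a2 ratios between suffixes turned to 0.964 over all kept cells and 0.968 in enterochromaffin-gated cells. Between enterochromaffin-gated and other enteroendocrine-gated cells of suffix 1, 1 member was called lower with doubled cuts, with equal cell weights and with cells of more than 1 lineage counted in. Between suffixes, the call over all kept cells fell to 0 with at most 10% mitochondrial UMIs, with the stricter cell filter (Slc18a2 at 1.498), without the top 5% of Scrublet scores (1.43) and at a ratio of 2, and came to 2 with equal cell weights. With no mitochondrial limit Slc18a2 lost its call there too, at 1.41, while Tph1 gained one, at 1.54. The call in enteroendocrine-gated cells fell to 0 with no mitochondrial limit (Maob at 0.672, against 0.6085) and at a ratio of 2. That in enterochromaffin-gated cells fell to 0 with no mitochondrial limit (Slc18a2 at 1.49), halved cuts (1.34), equal weights (1.43), a ratio of 2 and cells of more than 1 lineage counted in (1.49), against 1.53. With halved cuts 1 was called in enterocyte-gated cells and with equal weights 1 in dividing cells. The cause was not tested. No paired analysis was possible because there is 1 library per group and no link from suffix to group. At this depth Aanat, Asmt and Mtnr1a had too few UMIs for most comparisons.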
